A study of Homo sapiens with 12 samples.

Results

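The genes of glycolysis, gluconeogenesis and the pentose phosphate pathway were described in sorafenib-resistant and parental liver cancer cells. The members are 36 genes chosen by their symbol, of 27249 genes with an Ensembl identifier in the tables, and they take up 37 rows because ALDOA is listed on a second row. RNA was sequenced from Huh7 and HepG2, both human liver cancer cell lines that the labels call hepatocellular carcinoma cells, with 3 samples in each of 4 groups. All groups carry the genotype label WT. Resistant Huh7 and resistant HepG2 cells had been kept in sorafenib, a kinase inhibitor used against liver cancer, for 8 months at rising doses from a first dose of 10 μmol, and parental cells of both lines were untreated. Whether the 3 samples of a group came from separate cultures is not stated, so p-values measure the spread between these samples, which may be technical.

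Glycolysis turns glucose into pyruvate and yields ATP, and lactate dehydrogenase can then turn pyruvate into lactate. Gluconeogenesis runs the other way in hepatocytes and bypasses the irreversible steps of glycolysis with its own enzymes. The pentose phosphate pathway branches off after the first phosphorylation of glucose and supplies NADPH and ribose phosphate. Many steps have several isozymes, and the liver normally uses other isozymes (SLC2A2, PKLR, PFKL) than most proliferating cells (SLC2A1, HK2, PKM).

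Values are FPKM (reads or fragments per kilobase of exon, scaled to the size of the library), so that levels can be compared between genes per length. The reads behind a sample numbered 12290136 to 19285975. All 10 hepatocyte and hepatoma markers examined were at 1 FPKM or more in every group. Of the markers of fibroblasts, endothelial cells and leukocytes, at most 2 of a list reached 1 FPKM in a group, and their summed levels lay between 1.17 and 7.79 FPKM, against 5514 to 9868 FPKM for the hepatocyte markers. The hepatocyte sum was lower in resistant than in parental cells without overlap, at 5514 to 5646 against 8025 to 9868 FPKM in Huh7 and 6487 to 6823 against 7669 to 8399 FPKM in HepG2. Of 4 cholangiocyte markers, 3 were at 1 FPKM or more in every group, with summed levels of 142 to 154 FPKM in resistant against 83.3 to 106 FPKM in parental Huh7 samples, and 132 to 151 against 169 to 209.9 FPKM in HepG2. The part of these shifts in the results below was not tested. As RNA was taken from whole cultures, fewer cells of a kind and less RNA per cell cannot be told apart. The change in resistant Huh7 cells moved with the GC content of the transcripts over all genes (Spearman's rho 0.63 over 12545 genes, which share the same 6 libraries), whereas rho was 0.03 in HepG2 (11756 genes).

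Resistant Huh7 cells had higher levels of most enzymes of glucose breakdown and of all 3 pentose phosphate members. In resistant HepG2 cells few members passed both thresholds given below, 1 of them higher and 4 lower. More members were higher than lower there by adjusted p-value alone (5 against 4) and by groups that did not overlap (9 against 4). A gene is called here when its adjusted p-value is under 0.05 and its log2 fold change is beyond 1 on the log2(FPKM + 1) scale (limma, two-sided, Benjamini-Hochberg over all genes tested). Of 36 members, 30 passed the filter on low values in Huh7, and 12 of them rose in resistant cells, by 2.15 to 6.57 times, against 8.59% of all genes tested. With the GC trend of each library taken off, 7 of the 12 were still called, and 704 of 12545 genes in all were called higher. No member was called lower by limma, against 14.0% of all genes, although limma-voom on reads calculated back called 4. By adjusted p-value alone, 23 members were higher and 5 lower, against 32.7% and 37.4% of all genes. The 3 resistant samples lay above the 3 parental samples for 23 members and below them for 5, against 35.2% and 39.2% of all genes. The median log2 fold change was 0.85 over the members tested and -0.04 over all genes tested. In HepG2, 32 members passed the filter, of which 1 rose and 4 fell, against 3.29% and 2.98% of all genes, and the other 27 were not called. The adjusted p-value alone gave 5 higher and 4 lower members in this line (11.6% and 8.43% of all genes), and groups did not overlap for 9 higher and 4 lower members (24.9% and 15.5% of all genes). The median was 0.17 over the members and 0.12 over all genes. The number of members called in both lines was 0.

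**Figure D1:**
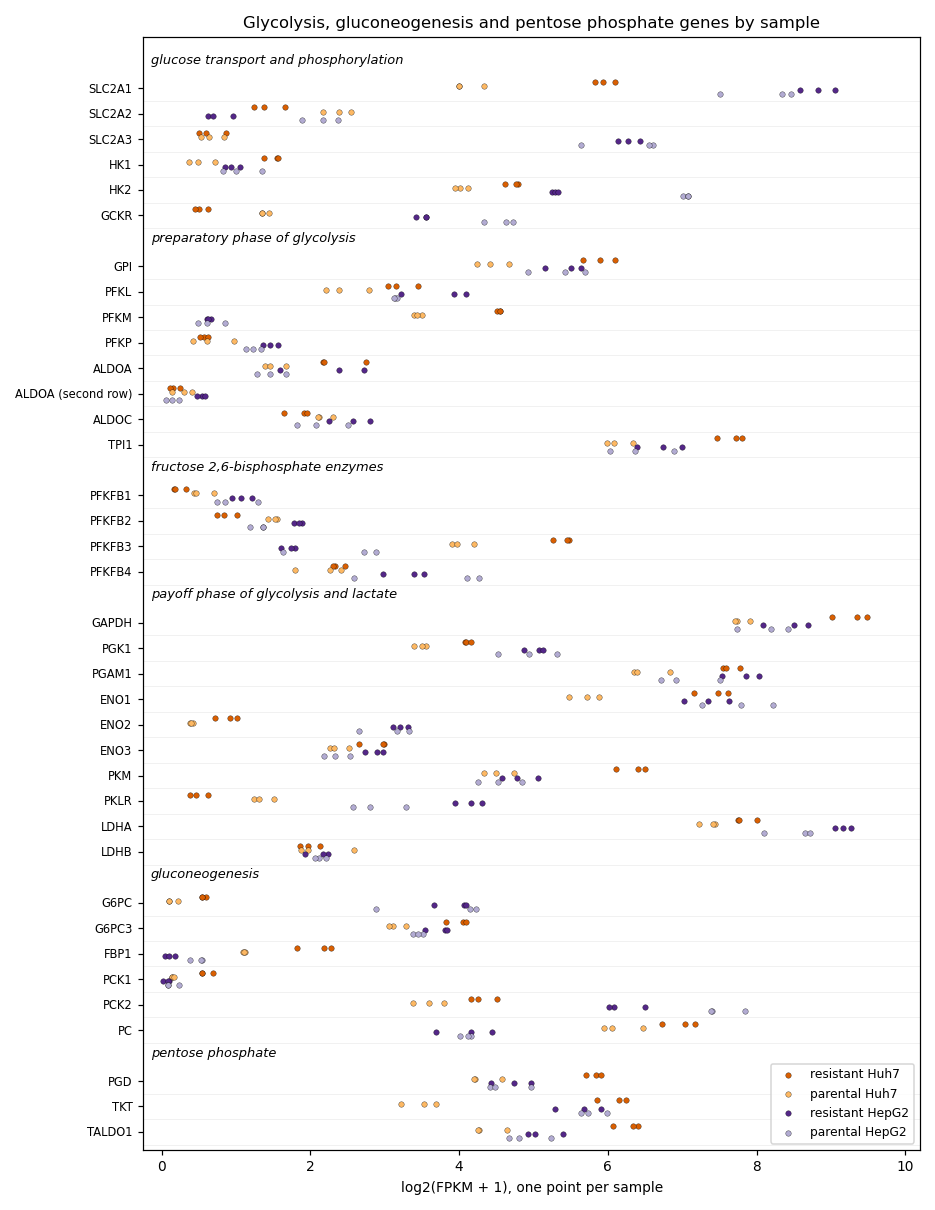
Level of the members in each of the 12 samples as log2(FPKM + 1), with 1 point per sample coloured by group and the members ordered by their role. Resistant Huh7 samples lie above parental Huh7 samples for most enzymes from SLC2A1 to TALDO1. Resistant and parental HepG2 samples overlap for 19 of the 32 members tested there. HK2, GCKR, SLC2A2 and PCK2 (lower in resistant cells) and PKLR (higher) are called in HepG2. Resistant HepG2 samples also lie above the parental ones, by less than for PKLR, for SLC2A1, PFKL, PFKP, PFKFB2, PGAM1, ENO3, LDHA and G6PC3.

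Summed over all members, expression was 2134 ± 216 FPKM (SD, n = 3) in resistant and 881 ± 98.2 FPKM in parental Huh7 cells. The members made up 0.863% to 1.01% of the summed FPKM of a resistant Huh7 sample and 0.442% to 0.511% of a parental one. In HepG2 the sums were 2398 ± 336 FPKM in resistant and 2103 ± 410.1 FPKM in parental cells (SD, n = 3 each), or 1.05% to 1.29% and 0.881% to 1.21% of a sample. Resistant Huh7 cells thus lay within the range of sums of the HepG2 samples, and parental Huh7 cells lay below all other samples.

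Promoters are shown of 4 called members: TKT and TALDO1, which had the largest rises in Huh7 on the log2(FPKM + 1) scale, HK2, which had the largest fall in HepG2 on this scale, and PKLR, the member that rose in HepG2. The sequences are from RefSeq (GRCh38.p14), read 5′ to 3′ on the strand of the gene, and end just upstream of the gene. Capitals mark ACGTG, the core of the hypoxia response element, on either strand (CACGT is its reverse complement), and CACGTG, the E-box, is a match on both strands at overlapping positions. The sequences cover chr3:53256053-53256272 on the minus strand for TKT, chr11:747214-747328 on the plus strand for TALDO1, chr2:74833877-74833980 on the plus strand for HK2 and chr1:155301439-155301688 on the minus strand for PKLR.
TKT: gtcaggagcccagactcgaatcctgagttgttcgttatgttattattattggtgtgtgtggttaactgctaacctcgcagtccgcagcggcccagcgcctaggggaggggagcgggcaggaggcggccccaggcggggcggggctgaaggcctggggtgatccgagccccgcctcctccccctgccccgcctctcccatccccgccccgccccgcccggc
TALDO1: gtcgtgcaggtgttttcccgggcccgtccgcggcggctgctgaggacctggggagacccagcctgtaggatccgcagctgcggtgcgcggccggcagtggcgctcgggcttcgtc
HK2: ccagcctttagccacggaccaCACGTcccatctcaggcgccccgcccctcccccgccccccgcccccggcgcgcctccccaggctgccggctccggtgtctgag
PKLR: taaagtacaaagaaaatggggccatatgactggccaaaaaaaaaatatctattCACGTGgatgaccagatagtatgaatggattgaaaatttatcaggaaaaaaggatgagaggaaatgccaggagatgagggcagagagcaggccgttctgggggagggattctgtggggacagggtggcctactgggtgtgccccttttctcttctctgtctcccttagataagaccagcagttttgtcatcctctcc
Neither TKT nor TALDO1 holds ACGTG in these bases, HK2 holds 1 match and PKLR holds an E-box. RefSeq promoter windows, from 250 bases before to 50 bases after a start, were matched for 33 of the 36 members. ACGTG was found in 23 of the 61 windows of the 33 members (37.7%), against 21.4% of 35116 windows of all genes. CACGTG, each occurrence of which also counts as ACGTG, was found in 10 (16.4%) against 7.26%. Several windows of 1 gene count separately here, so the windows are not independent. By gene, 17 of the 33 held ACGTG and 8 held CACGTG, and the share by gene over all genes was not calculated. A match describes the letters of a window and not a bound site.

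Glucose enters the cell through the transporters of the SLC2A family and is trapped by hexokinases. SLC2A1, the transporter of most proliferating cells, stood at 67.7, 55.8 and 59.9 FPKM in resistant and at 19.2, 15.0 and 15.0 FPKM in parental Huh7 samples. It reached 383, 533 and 453 FPKM in resistant and 181, 350.4 and 325 FPKM in parental HepG2 samples. The resistant samples lay above the parental ones in both lines, with a rise of 3.72 times in Huh7 (log2 fold change 1.84, SE 0.13, adjusted p = 2.13e-05) and values of 456 ± 74.9 against 285 ± 91.1 FPKM (SD, n = 3) in HepG2 that did not pass the test (0.72, SE 0.26, adjusted p = 0.0858). SLC2A2, the low-affinity transporter of hepatocytes, was at 1.59, 2.15 and 1.35 FPKM in resistant and at 3.51, 4.20 and 4.84 FPKM in parental Huh7 samples. Its values were 0.950, 0.544 and 0.612 FPKM in resistant and 4.19, 2.69 and 3.48 FPKM in parental HepG2 samples. Parental samples were thus higher in both lines without overlap. The fall was called in HepG2 (4.92 times, log2 fold change -1.38, SE 0.18, adjusted p = 0.00195), where the gene passed the filter only through the parental samples, and stayed under the fold threshold in Huh7 (-0.94, SE 0.15, adjusted p = 0.000638). In Huh7, leaving out resistant replicate 2 or parental replicate 1 brought SLC2A2 past the threshold (-1.06 and -1.04), and without any 1 of the parental HepG2 samples it no longer passed the filter in that line. SLC2A3, the high-affinity transporter known from neurons, was at 0.418 to 0.817 FPKM over the Huh7 samples and was not tested there. It stood at 69.3 to 85.2 FPKM in resistant and 49.0 to 96.4 FPKM in parental HepG2 samples, which overlapped (log2 fold change 0.01, adjusted p = 0.975).

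HK2, the hexokinase of many tumours and far above HK1 in level here, moved in opposite directions in the lines. Its level was 23.6, 26.6 and 26.2 FPKM in resistant and 16.4, 15.1 and 14.4 FPKM in parental Huh7 samples. In HepG2 it was 37.0, 37.9 and 39.0 FPKM in resistant and 128, 134 and 134 FPKM in parental samples. No sample of a group reached the range of the other group of its line. HK2 fell by 3.47 times in resistant HepG2 cells (log2 fold change -1.77, SE 0.12, adjusted p = 0.000173), and its value in Huh7 was 1.67 times higher and under the fold threshold (0.70, SE 0.10, adjusted p = 0.000429). HK1, the widely expressed hexokinase, was at 1.93, 1.61 and 1.95 FPKM in resistant and at 0.398, 0.641 and 0.285 FPKM in parental Huh7 samples, and at 0.910, 1.07 and 0.812 against 1.55, 0.995 and 0.777 FPKM in HepG2. The Huh7 groups lay apart and just under the fold threshold (log2 fold change 0.98, SE 0.13, adjusted p = 0.000235), with the filter passed only through the resistant samples, and without parental replicate 2 the change was past it (1.08). The HepG2 groups overlapped, and the gene was not tested there. HK2 made up 92.4% to 99.4% of the summed FPKM of HK1 and HK2 in every sample. GCKR, the liver protein that binds and holds back glucokinase, was lower in resistant cells of both lines; it belongs to the 70-gene signature that the study chose on these samples, so its direction is not independent evidence. Its values were 0.536, 0.412 and 0.368 FPKM in resistant and 1.54, 1.72 and 1.55 FPKM in parental Huh7 samples, and 10.8, 10.7 and 9.66 against 25.4, 23.7 and 19.2 FPKM in HepG2. The fall by 2.19 times in HepG2 was called (log2 fold change -1.05, SE 0.15, adjusted p = 0.00286) and was lost without parental replicate 1 (-0.97, adjusted p = 0.015). In Huh7 the ratio of the means was 3.66, but the change on the log2(FPKM + 1) scale was -0.86 (SE 0.10, adjusted p = 0.000177), as the scale understates changes of low values, and the gene passed the filter only through the parental samples, where it is high.

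In the preparatory phase, which spends ATP to split glucose into triose phosphates, 3 of the 6 members tested rose in resistant Huh7 cells, while the 6 tested in HepG2 were not called. GPI, which isomerises glucose phosphate to fructose phosphate, was at 67.1, 49.7 and 58.5 FPKM in resistant and 24.4, 20.3 and 17.8 FPKM in parental Huh7 samples, which lay apart (2.81 times, log2 fold change 1.45, SE 0.15, adjusted p = 9.57e-05). Its HepG2 values of 34.6, 48.7 and 44.4 FPKM in resistant and 41.8, 50.7 and 29.3 FPKM in parental samples overlapped. TPI1, which interconverts the triose phosphates, was at 222, 176 and 209.6 FPKM in resistant and 80.0, 66.6 and 62.4 FPKM in parental Huh7 samples. This was a rise of 2.91 times without overlap (log2 fold change 1.53, SE 0.14, adjusted p = 5.56e-05). In HepG2, resistant samples had 83.3, 127 and 106 FPKM of TPI1 and parental samples 81.4, 117 and 64.4 FPKM, again with overlap.

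Phosphofructokinase, the committing step of glycolysis, was carried by different isozymes in the lines. PFKM, the muscle-type isozyme, was at 22.5, 21.7 and 22.4 FPKM in resistant and 10.3, 9.51 and 9.79 FPKM in parental Huh7 samples, and at 0.524, 0.583 and 0.540 against 0.520, 0.801 and 0.400 FPKM in HepG2. It rose by 2.25 times in Huh7 (log2 fold change 1.09, SE 0.09, adjusted p = 4.29e-05) and was under the filter in HepG2. PFKL, the liver-type isozyme, was at 7.21 to 9.86 FPKM in resistant and 3.63 to 5.92 FPKM in parental Huh7 samples, apart but under the fold threshold (0.75, SE 0.17, adjusted p = 0.00465). In HepG2 it had 8.35 to 16.0 FPKM against 7.69 to 7.96 FPKM, and this did not pass the test (0.61, SE 0.22, adjusted p = 0.0853). PFKP, the platelet-type isozyme, was at 0.333 to 0.970 FPKM in Huh7 and 1.19 to 1.97 FPKM in HepG2 samples. PFKM therefore gave 61.6% to 73.7% of phosphofructokinase FPKM in the Huh7 samples and 3.14% to 8.04% in the HepG2 samples, and PFKL gave 79.3% to 86.2% in the latter.

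The aldolases split fructose bisphosphate. ALDOA was at 3.49, 3.54 and 5.74 FPKM in resistant and 2.18, 1.62 and 1.75 FPKM in parental Huh7 samples, and at 2.01, 5.62 and 4.23 against 2.20, 1.43 and 1.74 FPKM in HepG2. The Huh7 groups lay apart (log2 fold change 0.86, SE 0.17, adjusted p = 0.00236). The HepG2 change did not pass the test (0.76, SE 0.28, adjusted p = 0.0864) unless resistant replicate 1 was left out (1.09, adjusted p = 0.0075). Neither line passed the test with the GC trend taken off (Huh7 0.31, limma, adjusted p = 0.110, and HepG2 0.62, adjusted p = 0.0687). ALDOA values are uncertain, because 53.5% of its exon bases are shared with the gene on the second ALDOA row, which was at 0.0452 to 0.500 FPKM and was not tested. ALDOC, the aldolase known from brain, was at 2.12 to 2.87 FPKM in resistant and 3.28 to 3.94 FPKM in parental Huh7 samples (-0.34, SE 0.13, adjusted p = 0.0402) and at 3.75 to 5.94 against 2.54 to 4.67 FPKM in HepG2 (0.40, adjusted p = 0.217).

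The PFKFB enzymes make and break the strongest activator of phosphofructokinase. PFKFB3, the isozyme with the highest kinase activity, was at 43.4, 37.5 and 42.8 FPKM in resistant and 17.4, 13.9 and 14.7 FPKM in parental Huh7 samples, a rise of 2.69 times (log2 fold change 1.37, SE 0.12, adjusted p = 4.48e-05). In HepG2 it was at 2.05, 2.48 and 2.35 FPKM in resistant and 6.35, 5.60 and 2.11 FPKM in parental samples. Parental replicate 3 lay within the range of the resistant samples, so the groups overlapped (-0.70, SE 0.30, adjusted p = 0.134), and without it PFKFB3 was called lower (-1.08, adjusted p = 0.00674). PFKFB2, the heart isozyme, moved in opposite directions: it was at 0.682, 1.01 and 0.789 FPKM in resistant and 1.93, 1.89 and 1.69 FPKM in parental Huh7 samples, but at 2.71, 2.45 and 2.58 against 1.57, 1.28 and 1.58 FPKM in HepG2. Both pairs of groups lay apart, and both changes were under the fold threshold (Huh7 -0.64, SE 0.11, adjusted p = 0.00116; HepG2 0.53, SE 0.14, adjusted p = 0.0291). PFKFB4, which is induced by hypoxia in many cell types, had 3.95 to 4.50 FPKM in resistant and 2.45 to 4.32 FPKM in parental Huh7 samples, and 6.88 to 10.5 against 4.99 to 18.3 FPKM in HepG2, where parental replicate 3 was again the lowest. PFKFB1, the liver isozyme, was at 0.126 to 0.632 FPKM in Huh7 and 0.672 to 1.44 FPKM in HepG2 samples. PFKFB3 made up 67.9% to 89.8% of the summed PFKFB FPKM in Huh7 samples, and PFKFB4 made up 52.6% to 68.2% in HepG2 samples.

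In the payoff phase and the step to lactate, 4 of 9 members tested rose in resistant Huh7 cells and 1 of 10 in resistant HepG2 cells. GAPDH, the glyceraldehyde phosphate dehydrogenase that often serves as a reference gene, was at 715, 514 and 653 FPKM in resistant and 239.7, 211 and 209 FPKM in parental Huh7 samples. In HepG2 its values were 271, 414 and 360.3 FPKM in resistant and 291, 343 and 212 FPKM in parental samples. The Huh7 groups lay apart by 2.85 times (log2 fold change 1.50, SE 0.15, adjusted p = 8.87e-05), and the HepG2 groups overlapped (0.31, SE 0.23, adjusted p = 0.356). PGAM1, a phosphoglycerate mutase, was at 218, 186 and 192 FPKM in resistant and 114, 80.9 and 82.6 FPKM in parental Huh7 samples. It was at 184, 260.5 and 232 FPKM in resistant and 120.0, 181 and 104 FPKM in parental HepG2 samples. Resistant samples were higher without overlap in both lines, and the change was called in Huh7 (2.15 times, 1.11, SE 0.15, adjusted p = 0.000325) and under the fold threshold in HepG2 (0.76, SE 0.23, adjusted p = 0.0497). GAPDH and PGAM1 have 62 and 13 pseudogenes named after them, so how reads were shared among the copies could change their values. PGK1, the phosphoglycerate kinase, was higher in resistant Huh7 cells and under the fold threshold (15.9 to 16.9 against 9.50 to 10.8 FPKM, log2 fold change 0.63, adjusted p = 0.000584), and its HepG2 groups overlapped at 28.2 to 33.9 and 22.0 to 38.7 FPKM.

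ENO1, the common enolase, was at 196, 142 and 178 FPKM in resistant and 57.8, 43.7 and 51.5 FPKM in parental Huh7 samples. In HepG2 it was at 129.5, 198 and 162 FPKM in resistant and 220.1, 298 and 152 FPKM in parental samples. It rose by 3.37 times in Huh7 (log2 fold change 1.73, SE 0.16, adjusted p = 5.27e-05), while the HepG2 groups overlapped (-0.42, SE 0.26, adjusted p = 0.277). ENO3, the muscle enolase, was higher in resistant cells of both lines by a like amount that stayed under the fold threshold: 5.30 to 6.98 against 3.80 to 4.73 FPKM in Huh7 (0.51, adjusted p = 0.00841) and 5.64 to 6.86 against 3.56 to 4.80 FPKM in HepG2 (0.52, adjusted p = 0.0452). The change of ENO3 in Huh7 was lost with the GC trend taken off (-0.02, limma, adjusted p = 0.807). In HepG2 it was then 0.42 (adjusted p = 0.00882). ENO2, the neuronal enolase, was under the filter in Huh7 at 0.639 to 1.01 FPKM in resistant and 0.299 to 0.333 FPKM in parental samples, and overlapped in HepG2 at 7.64 to 8.89 and 5.30 to 9.07 FPKM.

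Pyruvate kinase, the last step of glycolysis, showed the clearest contrast between isozymes. PKM, the gene of the muscle and tumour forms, was at 89.3, 68.0 and 83.5 FPKM in resistant and 25.6, 21.5 and 19.2 FPKM in parental Huh7 samples. PKLR, the gene of the liver and red cell forms, was at 0.383, 0.541 and 0.299 FPKM in resistant and 1.36, 1.84 and 1.49 FPKM in parental Huh7 samples. PKM was 3.63 times higher (log2 fold change 1.81, SE 0.15, adjusted p = 3.38e-05) in this line, and PKLR was 3.83 times lower by the means, which on the log2(FPKM + 1) scale was -0.86 (SE 0.12, adjusted p = 0.000352) and under the fold threshold. PKLR passed the filter in Huh7 only through the parental samples, so there it had to differ. In HepG2, PKM was at 22.9, 32.5 and 26.4 FPKM in resistant and 21.9, 27.9 and 18.0 FPKM in parental samples and overlapped. PKLR was at 14.4, 18.8 and 16.8 FPKM in resistant and 5.95, 8.77 and 4.92 FPKM in parental HepG2 samples. PKLR was thus the 1 member that rose in HepG2, by 2.55 times (1.25, SE 0.20, adjusted p = 0.0054). The share of PKLR in the summed FPKM of both genes was 0.36% to 0.79% in resistant and 5.03% to 7.89% in parental Huh7 samples, and 36.7% to 38.9% in resistant and 21.3% to 23.9% in parental HepG2 samples. Of the exon bases of PKLR, 17.6% are shared with HCN3 on the other strand, and the strand setting of the counting is not stated. LDHA, the lactate dehydrogenase subunit of glycolytic tissue, was at 213, 256 and 216 against 174, 169.9 and 149 FPKM in Huh7 (log2 fold change 0.47, SE 0.13, adjusted p = 0.00953) and at 529, 569.9 and 614 against 402, 419.9 and 273 FPKM in HepG2 (0.67, SE 0.19, adjusted p = 0.0439). It was higher in resistant samples of both lines without overlap, and under the fold threshold in both. LDHB, the heart subunit, was at 2.62 to 5.01 FPKM over all 12 samples with overlapping groups in both lines, and 33.4% of its exon bases are shared with another gene.

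**Figure D2:**
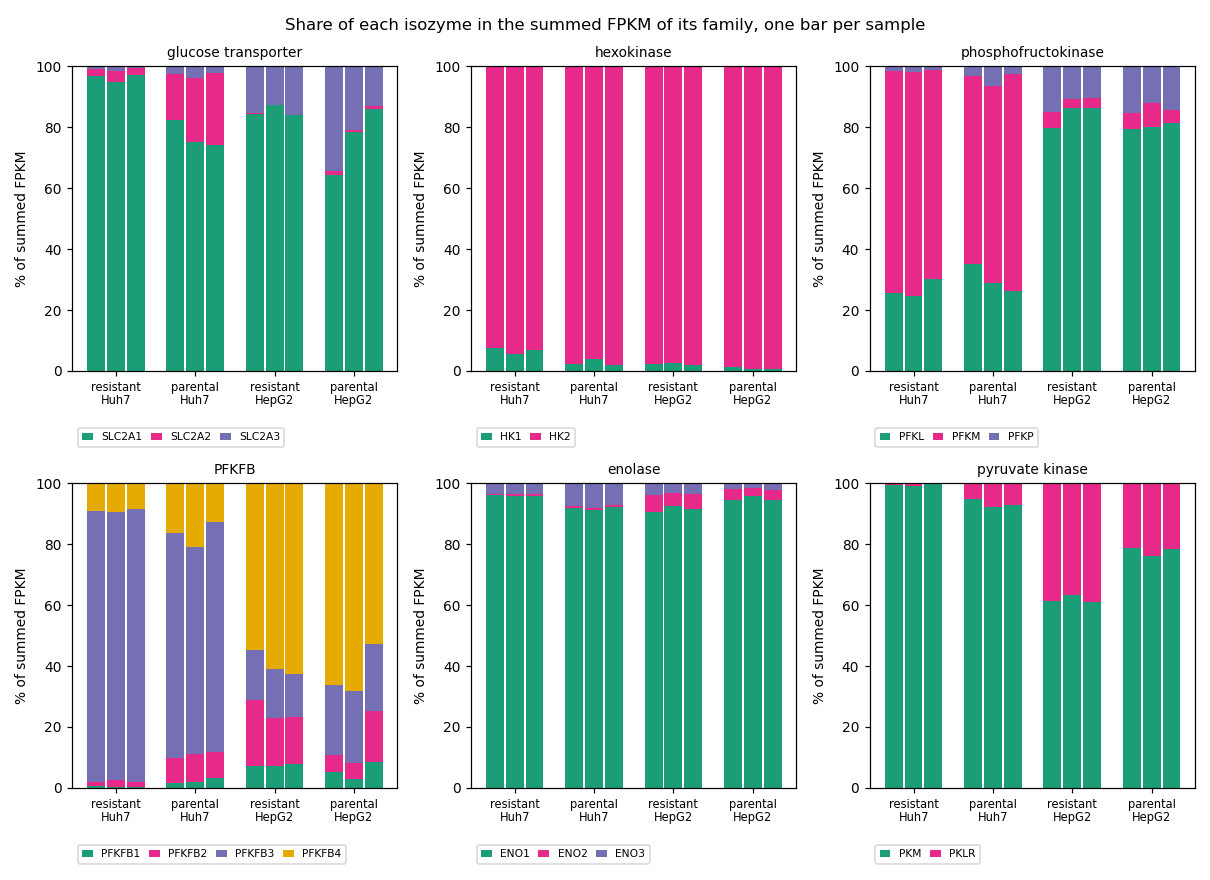
Share of each isozyme in the summed FPKM of its family, in percent, with 1 bar per sample and the 3 samples of a group side by side. PFKM and PFKFB3 fill most of their bars in Huh7, PFKL and PFKFB4 in HepG2, and the PKLR part of the pyruvate kinase bar shrinks in resistant Huh7 and grows in resistant HepG2 samples.

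Of the gluconeogenesis members, none was called in Huh7 by limma, 4 of the 4 tested were higher there at an adjusted p-value under 0.05, and 1 of 4 fell in HepG2. PCK2, the mitochondrial phosphoenolpyruvate carboxykinase, was at 21.7, 16.8 and 18.1 FPKM in resistant and 12.9, 11.1 and 9.37 FPKM in parental Huh7 samples. It was at 66.6, 89.3 and 63.7 FPKM in resistant and 168, 228 and 167 FPKM in parental HepG2 samples. The groups lay apart in both lines and in opposite directions, with a fall by 2.56 times in HepG2 (log2 fold change -1.35, SE 0.19, adjusted p = 0.00287) and a value 1.70 times higher in Huh7 that was under the fold threshold (0.72, SE 0.14, adjusted p = 0.00216). The Huh7 change of PCK2 was 0.17 with the GC trend taken off and did not pass the test (limma, adjusted p = 0.0988). PCK1, the cytosolic form that hormones regulate in liver, was under the filter everywhere, at 0.456 to 0.616 FPKM in resistant and 0.0958 to 0.118 FPKM in parental Huh7 samples and at 0.00866 to 0.179 FPKM in HepG2. FBP1, the fructose bisphosphatase that opposes phosphofructokinase, was at 3.54, 2.52 and 3.85 FPKM in resistant and 1.17, 1.14 and 1.15 FPKM in parental Huh7 samples, and at 0.0354, 0.131 and 0.0697 against 0.457, 0.439 and 0.305 FPKM in HepG2. The Huh7 groups lay apart at a change just under the fold threshold (0.99, SE 0.14, adjusted p = 0.000338), which was passed without resistant replicate 2 (1.12), under median-ratio scaling (1.00), with a pseudocount of 0.1 (1.42) and with limma-voom (1.49). The HepG2 values rest on 1 to 4 reads a sample in resistant and 8 to 10 in parental cells and were not tested. Of the exon bases of FBP1, 16.3% are shared with other genes. PC, the pyruvate carboxylase, was at 105 to 143 FPKM in resistant and 60.6 to 88.1 FPKM in parental Huh7 samples (0.81, SE 0.17, adjusted p = 0.00297), and overlapped in HepG2 at 11.9 to 20.7 and 15.1 to 16.8 FPKM. G6PC, the glucose-6-phosphatase that releases glucose from liver, was at 0.456 to 0.512 against 0.0676 to 0.162 FPKM in Huh7, under the filter, and at 11.6 to 16.1 against 6.40 to 17.8 FPKM in HepG2, where the groups overlapped. G6PC3, its widely expressed relative, was at 13.1 to 16.1 against 7.29 to 8.73 FPKM in Huh7 (0.84, adjusted p = 0.000348) and at 10.7 to 13.3 against 9.40 to 10.4 FPKM in HepG2 (0.28, adjusted p = 0.182).

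All 3 pentose phosphate members rose in resistant Huh7 cells, and none was called in HepG2, where their 3 pairs of groups overlapped. PGD, the phosphogluconate dehydrogenase of the oxidative branch, was at 56.5, 51.1 and 58.9 FPKM in resistant and 22.9, 17.5 and 17.4 FPKM in parental Huh7 samples (2.88 times, log2 fold change 1.49, SE 0.13, adjusted p = 4.88e-05). Its HepG2 values were 20.5, 30.4 and 25.6 FPKM in resistant and 20.3, 30.2 and 21.5 FPKM in parental samples. TKT, the transketolase of the non-oxidative branch, was at 74.8, 56.8 and 69.8 FPKM in resistant and 11.9, 10.5 and 8.32 FPKM in parental Huh7 samples. With a rise of 6.57 times, it had the largest change of the members tested in either line (2.61, SE 0.15, adjusted p = 1.02e-05). Its HepG2 values of 38.2, 58.9 and 50.3 FPKM in resistant and 52.1, 62.6 and 48.8 FPKM in parental samples were near those of resistant Huh7 cells. TALDO1, the transaldolase that works with TKT, was at 83.9, 66.3 and 80.1 FPKM in resistant and 23.9, 18.3 and 18.0 FPKM in parental Huh7 samples (3.82 times, 1.89, SE 0.14, adjusted p = 2.86e-05). In HepG2 it was at 29.5, 41.2 and 31.6 FPKM in resistant and 26.9, 36.6 and 24.6 FPKM in parental samples. As given above, the promoter bases shown for TKT and TALDO1 hold no ACGTG, while the RefSeq window of PGD, which rose too, holds it. Among the members that fell in HepG2, HK2 holds ACGTG in its windows, and SLC2A2, GCKR and PCK2 do not. Whether the motif bears on any change was not tested.

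**Figure D3:**
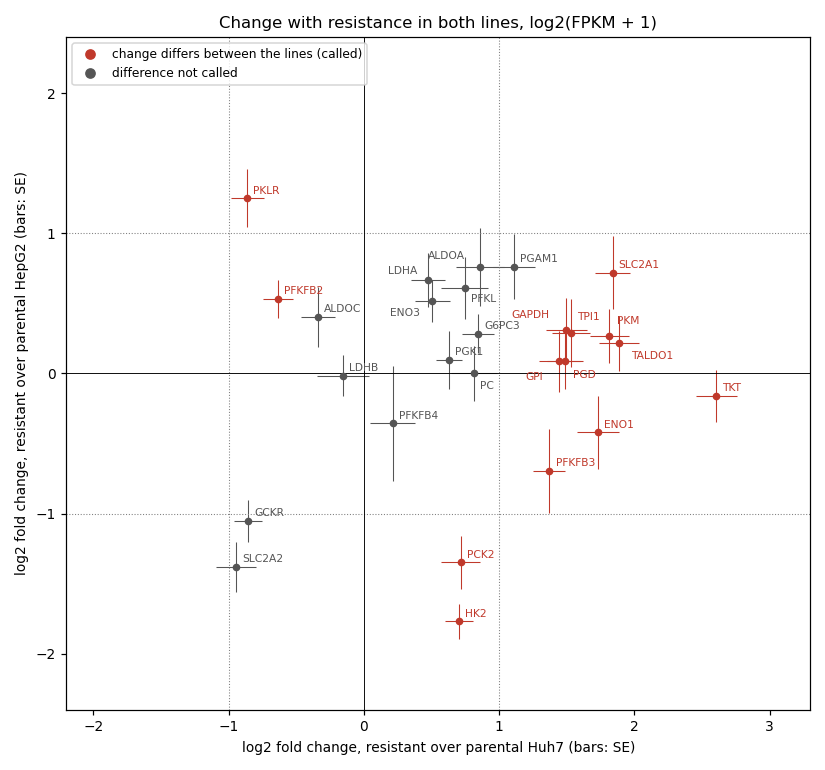
Log2 fold change of resistant over parental cells on the log2(FPKM + 1) scale in Huh7 (horizontal) and HepG2 (vertical) for the 27 members tested in both lines, with bars of 1 SE and red points where the change differed between the lines. Most red points lie to the right of 1 in Huh7 and near 0 in HepG2, with HK2 and PCK2 at the lower right and PKLR at the upper left.

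The change differed between the lines for 17 of the 35 members tested in the interaction of line and resistance (limma, all 12 samples). It was higher in Huh7 for 15 and lower for 2, against 10.6% and 18.2% of all genes. The median difference was 0.56 over the members and -0.15 over all genes, and it was -0.03 over all genes under median-ratio scaling. The 15 were SLC2A1, HK1, HK2, GPI, PFKM, PFKFB3, TPI1, GAPDH, ENO1, PKM, FBP1, PCK2, PGD, TKT and TALDO1, and the 2 were PFKFB2 and PKLR. HK2, PCK2, PFKFB2 and PKLR had changes of opposite sign in the lines, each with an adjusted p-value under 0.05 in both, although PFKFB2 and PKLR passed the filter in Huh7 through the parental samples, where they are high. For PCK2 the Huh7 change no longer passed the test with the GC trend taken off (0.17, adjusted p = 0.0988). SLC2A2, GCKR, PGAM1, LDHA and ENO3 had adjusted p-values under 0.05 in the same direction in both lines. No difference was called for them, with differences of 0.44 (SE 0.23), 0.20 (SE 0.16), 0.35 (SE 0.30), -0.19 (SE 0.23) and -0.01 (SE 0.19). SLC2A2 in HepG2 and GCKR in Huh7 passed the filter only through the parental samples, so there they had to differ. GCKR is also in the signature chosen on these samples. Once the GC trend was taken off, SLC2A2 (adjusted p = 0.173) and ENO3 (0.807) did not pass the test in Huh7, nor LDHA (0.0699) in HepG2. The differences were then 1.33 for SLC2A2 (adjusted p = 1.77e-05) and -0.39 for ENO3 (adjusted p = 0.00937).

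Before resistance, the lines already differed in this module. Parental Huh7 and parental HepG2 cells, the same samples as in the comparisons above, were compared over 33 members, of which 3 were higher and 13 lower in Huh7, against 19.4% and 12.5% of all genes. The samples did not overlap for 5 higher and 18 lower members (41.6% and 28.4% of all genes). Higher in Huh7 were PFKM (17.2 times, log2 fold change 2.80, SE 0.14, adjusted p = 1.25e-06), PC (4.44 times, 2.07, SE 0.16, adjusted p = 1.31e-05) and PFKFB3 (3.27 times, 1.61, SE 0.30, adjusted p = 0.00184). Lower in Huh7 were SLC2A1, SLC2A3, HK2, GCKR, PFKFB4, PGK1, ENO1, ENO2, PKLR, LDHA, G6PC, PCK2 and TKT, with log2 fold changes from -1.13 (LDHA) to -5.60 (SLC2A3). SLC2A1 was 17.4 times, PCK2 16.9 times and HK2 8.64 times higher in parental HepG2 than in parental Huh7 cells. SLC2A3, ENO2 and G6PC passed the filter only through the HepG2 samples and PFKM only through the Huh7 samples, so each had to differ.

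Transcripts of the members are rich in GC, with a median of 55.8% in the 30 tested in Huh7 against 47.4% over all genes tested, and this is the range in which genes of any kind were higher in resistant Huh7 cells. Over all genes with a GC content of 55 to 57.5%, the median change was 0.53 on the log2 scale in Huh7 and 0.10 in HepG2, and that of genes of 37.5 to 40% was -0.86 and 0.15. With the GC trend of each library taken off, 7 of the 12 members that rose in Huh7 were still called: TKT (2.06), TALDO1 (1.40), SLC2A1 (1.31), PKM (1.31), ENO1 (1.29), PGD (1.07) and TPI1 (1.02). GAPDH (0.96), GPI (0.93), PFKFB3 (0.82), PFKM (0.79) and PGAM1 (0.69) were then under the fold threshold with adjusted p-values still under 0.05. PKLR (-1.42) and GCKR (-1.21) were then called lower in resistant Huh7 cells. SLC2A2, whose transcripts have a GC content of 39.5%, went from -0.94 to -0.14 (adjusted p = 0.173). The median over the members was 0.62 after this step. In HepG2 the step left the counts at 1 higher and 4 lower, with all 5 called members still called.

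**Figure D4:**
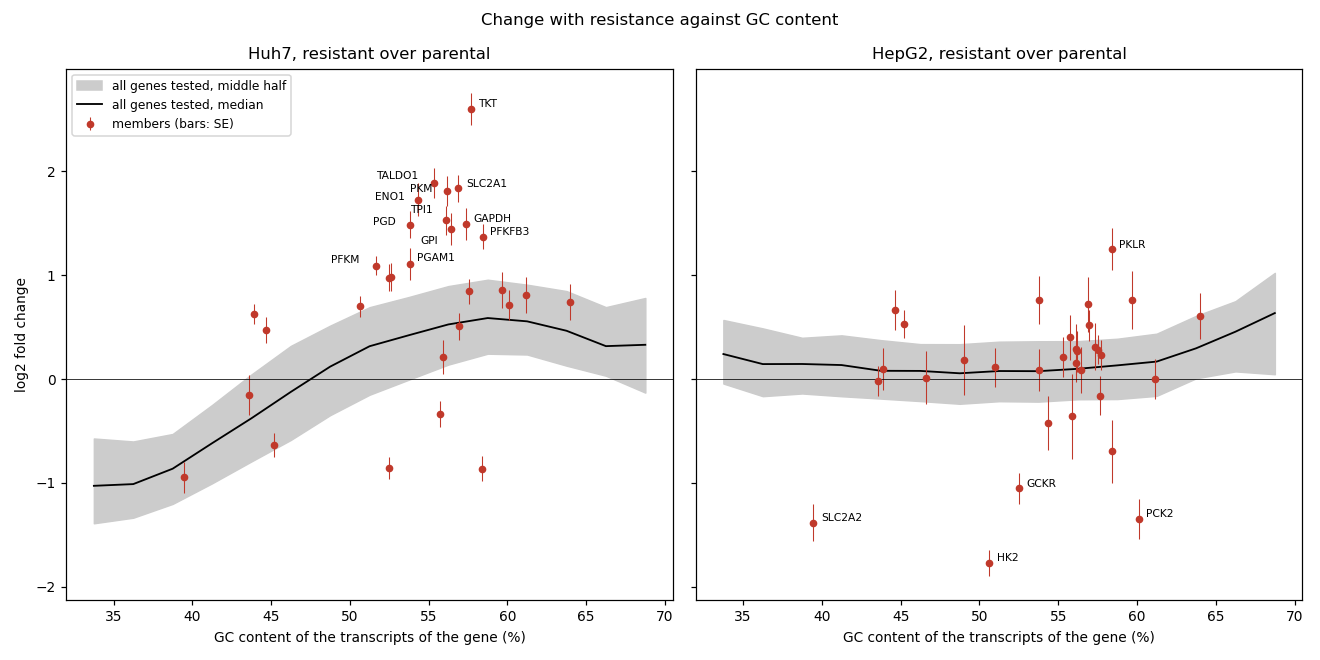
Log2 fold change of resistant over parental cells against the GC content of the transcripts in percent, with members as red points (bars of 1 SE) and, over all genes tested, the median as a line and the range from the lower to the upper quartile in grey. In Huh7 the line rises from -1.03 at the lowest to 0.59 at 57.5 to 60% GC, and TKT, TALDO1, PKM, SLC2A1 and ENO1 stand well above it. In HepG2 the line is nearly flat below 60%.

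Of 84 further genes around these pathways, 71 were tested in Huh7, where 10 rose and 3 fell (median 0.28), against 8.59% and 14.0% of all genes tested. In HepG2, 74 were tested, of which 4 fell and the other 70 were not called (median 0.13). Of all genes tested in HepG2, 3.29% rose and 2.98% fell. The same shares over all genes apply to each list below. With the GC trend taken off, 4 were called higher in Huh7 and none lower (median 0.09, limma), against 704 and 730 of 12545 genes in all. In HepG2, 5 were then called lower (-0.02), against 442 of 11756 genes in all. Genes of glycolysis and gluconeogenesis outside the members gave 4 rises of 11 tested in Huh7 (median 0.45) and 1 fall of 12 in HepG2 (0.27). Taking off the GC trend left 0 rises in Huh7 and gave 2 falls in HepG2 for this list. GOT1, the cytosolic aspartate aminotransferase of the malate-aspartate shuttle, was called in both lines in opposite directions before the GC trend was taken off, at 34.0, 29.2 and 30.7 against 14.5, 10.5 and 11.6 FPKM in Huh7 (1.30, SE 0.13, adjusted p = 8.86e-05) and 29.4, 43.6 and 31.8 against 133, 188 and 132 FPKM in HepG2 (-2.08, SE 0.20, adjusted p = 0.000709). TXNIP, which restrains glucose uptake and is induced by glucose, was called in opposite directions too, and with the GC trend taken off as well (2.51 in Huh7 and -2.08 in HepG2). It was at 14.6, 18.8 and 15.6 against 2.51, 2.88 and 2.27 FPKM in Huh7 (2.28, SE 0.13, adjusted p = 7.56e-06) and at 40.7, 36.2 and 41.8 against 181, 179.7 and 131 FPKM in HepG2 (-2.01, SE 0.17, adjusted p = 0.000388). With the GC trend taken off, GOT1 was just under the fold threshold in Huh7 (0.99, adjusted p = 0.000171) and still called in HepG2 (-2.14).

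Among 15 listed regulators of glucose metabolism, 1 rose and 1 fell of 13 tested in Huh7 (median 0.36), and 3 of 15 fell in HepG2 (median -0.35). HIF1A, the hypoxia factor that drives many glycolysis genes, was the regulator that fell in Huh7, from 48.7, 57.0 and 65.7 FPKM in parental to 20.8, 19.0 and 18.6 FPKM in resistant samples (-1.50, SE 0.13, adjusted p = 4.34e-05), and its HepG2 groups overlapped (0.08, adjusted p = 0.818). The fall of HIF1A in Huh7 was under the fold threshold with the GC trend taken off (-0.65, adjusted p = 0.000404). In HepG2, TXNIP, CEBPB (-1.17) and PPARGC1A (-1.08, adjusted p = 0.0111) fell. PPARGC1A, the coactivator of gluconeogenesis genes, is also in the signature chosen on these samples.

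The pyruvate dehydrogenase complex with its kinases and phosphatases had 2 rises of 10 tested in Huh7 (median 0.20) with PDHA1, a subunit of the complex, as the larger (1.42), and its 10 tested members were not called in HepG2 (median 0.21). Glycogen synthesis and breakdown gave 2 rises and 1 fall among 13 tested in Huh7 (median -0.41). PGM1, the phosphoglucomutase, was the larger rise (1.18), and the fall was -1.15. In HepG2, 12 genes of this list were not called (0.11). Of the lactate and pyruvate carriers, SLC16A7 fell in Huh7 (-1.47) among 6 tested (median 0.13), and 5 tested in HepG2 were not called (0.39). Entry of fructose, galactose and mannose gave 1 rise of 11 in Huh7 (median 0.43), that of AKR1B1, the aldose reductase (2.08), and 11 genes not called in HepG2 (-0.06). Other pentose and ribose phosphate genes, 7 tested in Huh7 (median 0.18) and 9 in HepG2 (0.25), were not called in either line. PDHA1 (1.42) and AKR1B1 (1.61) were still called in Huh7 with the GC trend taken off, and PGM1 (0.96) and SLC16A7 (-0.63) were under the fold threshold. No gene of the glycogen list was then called in Huh7 in either direction.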

How the data were processed

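Samples were grouped by their labels into parental and sorafenib-resistant cells of Huh7 and of HepG2, 3 samples each. The deposited tables hold 1 value per gene and sample, and the authors had made these FPKM by steps not described. The unit is not stated. It was checked on the values, since value times exon length falls on whole multiples of 1 step per sample within 0.05, a pattern RPKM and FPKM share. This held for 99.5% to 99.6% of values of single-exon genes up to 2000 reads. For multi-exon genes, checked at low read numbers only, it held for 94.4% to 95.0% of values. The step gives the reads behind a sample, 12290136 to 19285975. The submitters' processing notes name bcl2fastq and GRCh38, and the aligner and counter are not given in the sources used here. The kit for RNA extraction is not the same in the labels and in the methods. Exon lengths are those of all exons of a gene joined (GENCODE release 29), so they exceed a single mRNA. The 71462 rows with NONCODE identifiers were not used here.

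Tables were read with Python 3.11.15 and pandas 2.3.3, and figures were drawn with matplotlib 3.10.9. Genes that reached 1 FPKM in 3 or more samples of a fit were tested with limma 3.58.1 (R 4.3.3) on log2(FPKM + 1), two-sided, with a variance trend and Benjamini-Hochberg adjustment over all genes tested: within each line, between the parental lines, and as an interaction over all 12 samples. A gene is called at an adjusted p-value below 0.05 if its log2 fold change is also beyond 1. In a simulated check, 200 genes per comparison were given a change of 2 on the log2 scale. The Huh7 comparison recovered 97.5% of these and wrongly called 2 of 12203 genes tested. For HepG2 the figures were 96% and 4 of 11685. The interaction gave 97% and 6 of 12665, and the parental lines gave 97% and 4 of 12155. Changes nearer the threshold of 1 were not simulated, so their recovery is not known. The rates were not split by expression level or GC content. They therefore do not describe members of low FPKM or the effect of the GC trend in Huh7.

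The members and the other gene lists were chosen with earlier results of these data known. Every member is given, those called within a line or in the interaction with all sample values. Of the other lists, genes called in both lines and the called gene with the largest change up and down in each list and line are named, except the glycogen gene that fell in Huh7. Alternatives were another pseudocount (0.1), no filter, upper-quartile and median-ratio scaling, no variance trend, limma-voom on reads calculated back, a joint fit of all 12 samples, a block for the replicate number, each library with its GC trend taken off (lowess, span 0.3), the latter with the block, and leaving out each sample in turn. Some genes of these pathways are not reported here.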

Additional observations from a re-analysis of the deposited data

Results flagged for a closer look

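The change with resistance differed between Huh7 and HepG2 for 17 members by the test of that difference (change in Huh7 minus change in HepG2, log2 scale, limma interaction over 12 samples, adjusted p under 0.05 and difference beyond 1). It was higher in Huh7 for TKT by 2.77, the transketolase, and for HK2 by 2.47. ENO1 (2.15), PFKFB3 (2.07) and PCK2 (2.06) followed. TALDO1 (1.67), PKM (1.55), PGD (1.40), FBP1 (1.36) and GPI (1.36) were next. TPI1 (1.24), GAPDH (1.19), SLC2A1 (1.12), PFKM (1.11) and HK1 (1.09) had the smallest differences in this direction. The difference was negative for PKLR, the liver pyruvate kinase, at -2.11 and for PFKFB2 at -1.17.

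For HK1, PFKM and FBP1, the HepG2 samples lay mostly or wholly under 1 FPKM, which on the log2(FPKM + 1) scale leaves little room for a change in that line. The difference of SLC2A1 was under the fold threshold without HepG2 parental replicate 2 (0.94) or 3 (0.999), and that of HK1 without HepG2 parental replicate 1 (0.94). PFKFB4, whose difference was 0.57 (adjusted p = 0.365), was called without HepG2 parental replicate 3 (1.10). With the GC trend taken off, 10 of the 17 were still called, and GPI (0.99), PFKM (0.92), TPI1 (0.88), HK1 (0.86), GAPDH (0.80), SLC2A1 (0.74) and PFKFB2 (-0.86) were under the fold threshold, while SLC2A2 (1.33) and ALDOC (-1.09) were called in addition. Groups of 3 samples were not examined for single outlying samples.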

How the results depend on the processing

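No called member changed direction under any alternative run, and repeats of their log2 fold changes stayed on their side of the thresholds in 826 cases and fell under them in 28. The number of members higher in resistant Huh7 cells was 12, and 7 with the GC trend taken off, with or without the replicate block, and 15 with a pseudocount of 0.1 or with limma-voom (HK1, ALDOA and FBP1 added). Members lower in resistant Huh7 cells numbered 0, but 4 with a pseudocount of 0.1 or with limma-voom (SLC2A2, GCKR, PKLR and PFKFB2) and 2 with the GC trend taken off, with or without the block (GCKR and PKLR). Members higher in HepG2 numbered 1, and 2 with limma-voom (ALDOA added). Leaving out 1 sample gave 12 to 13 higher and 0 to 1 lower members in Huh7. In HepG2 it gave 1 to 2 higher and 2 to 4 lower members, for the interaction 14 to 15 and 2, and 2 to 3 and 10 to 14 between the parental lines. In HepG2, 2 lower members were left without parental replicate 1 (GCKR under the fold threshold, SLC2A2 not tested) and 3 without parental replicate 2. SLC2A3, ENO2 and G6PC were not tested without any 1 of the parental HepG2 samples, nor PFKM without any 1 of the parental Huh7 samples. The replicate block left all counts of members as they were: for resistant Huh7 cells 12 and 0, for resistant HepG2 cells 1 and 4, for the interaction 15 and 2, and between the parental lines 3 and 13. Deviations from the group mean had correlations of 0.08, 0.06 and -0.23 in Huh7 and 0.25, 0.44 and -0.01 in HepG2 between samples that share a number. Between samples with unlike numbers they were -0.33 to 0.28 in Huh7 and -0.42 to 0.21 in HepG2. With 3 samples in a group, these values cannot decide whether the numbers pair the samples. Over all genes, the calls in Huh7 (1079 higher, 1759 lower) became 704 and 730 with the GC trend taken off, 1630 and 2665 with limma-voom, and 1581 and 2606 with a pseudocount of 0.1. In HepG2, 387 and 350 became 285 and 428 under median-ratio scaling, 309 and 406 under upper-quartile scaling, 277 and 442 with the GC trend taken off, 612 and 489 with a pseudocount of 0.1, and 646 and 511 with limma-voom. Median-ratio scaling moved the median of all genes from -0.15 to -0.03 in the interaction and from 0.19 to 0.05 between the parental lines. With 1 to 4 reads of FBP1 and 1 to 9 of PCK1 in a resistant HepG2 sample, these genes were under the filter there and were not tested.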
